A study of Homo sapiens with 6 samples.

Results

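Small nucleolar RNA host genes were followed in EndoC-BH5, a line of human pancreatic beta cells. They were the genes whose symbol is SNHG followed by digits only, together with GAS5, ZFAS1, DANCR and TAF1D, and the rule used no measured value. This gave 27 genes of the 60611 in the count table. RNA of 3 cultures treated with interferon gamma and interleukin 1b (the cytokine group) was compared with RNA of 3 cultures treated with vehicle. All cultures were labelled WT and came from the same line, described as 3 batches per group, so the p-values measure the spread between batches of 1 line and not between donors. Neither dose nor exposure time is stated in those labels.

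Small nucleolar RNAs (snoRNAs) are short guide RNAs of the nucleolus that direct the chemical modification and processing of ribosomal RNA. Box C/D snoRNAs guide 2′-O-methylation and box H/ACA snoRNAs guide the change of uridine to pseudouridine. In human cells most of them are cut from the introns of a host gene. Some hosts are protein-coding genes, while in others the spliced exons code for little or no protein. The spliced RNA of many hosts begins with a run of pyrimidines, as the mRNAs of ribosomal proteins do, and is degraded during translation by nonsense-mediated decay. The measurement here is of the host transcript per gene, and a lower host level does not measure its snoRNAs.

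The cargo of the hosts with the largest falls is shown to make clear what each gene carries. The sequences are those of GENCODE 29 on GRCh38, written as DNA from 5′ to 3′, with the C box TGATGA and the D box CTGA of a C/D snoRNA in capitals, or the ACA box of an H/ACA snoRNA. Each lies inside the span of the host named with it, on the same strand.
SNORD60 (SNHG19, chr16:2155023-2155105, minus strand): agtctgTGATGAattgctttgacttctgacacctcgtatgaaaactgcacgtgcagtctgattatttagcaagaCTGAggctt
SNORA26 (DANCR, chr4:52713249-52713370, plus strand): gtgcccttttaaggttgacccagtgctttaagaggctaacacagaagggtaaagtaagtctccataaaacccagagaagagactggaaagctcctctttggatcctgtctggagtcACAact
SNORA17A (SNHG7, chr9:136726747-136726879, minus strand): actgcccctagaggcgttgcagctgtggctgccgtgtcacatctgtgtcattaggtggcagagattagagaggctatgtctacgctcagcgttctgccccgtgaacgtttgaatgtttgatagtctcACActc
SNORA24 (SNHG8, chr4:118279190-118279320, plus strand): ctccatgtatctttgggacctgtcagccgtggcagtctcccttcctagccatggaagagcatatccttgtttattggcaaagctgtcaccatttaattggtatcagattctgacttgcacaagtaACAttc

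The most abundant host, SNHG29, carries a pair of closely related C/D snoRNAs, and SNHG32 carries SNORD48, which is widely used as a reference RNA in microRNA assays. ZFAS1, whose level did not pass the test, carries members of the SNORD12 family.
SNORD49A (SNHG29, chr17:16440036-16440106, plus strand): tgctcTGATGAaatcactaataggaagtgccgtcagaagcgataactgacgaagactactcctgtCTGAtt
SNORD49B (SNHG29, chr17:16439505-16439576, plus strand): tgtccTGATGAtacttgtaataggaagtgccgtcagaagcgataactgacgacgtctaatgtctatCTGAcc
SNORD48 (SNHG32, chr6:31835263-31835326, plus strand): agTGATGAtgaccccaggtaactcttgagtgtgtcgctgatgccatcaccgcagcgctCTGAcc
SNORD12C (ZFAS1, chr20:49278940-49279028, plus strand): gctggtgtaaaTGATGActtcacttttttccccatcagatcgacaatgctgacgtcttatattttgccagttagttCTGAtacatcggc
SNORD49A and SNORD49B share an unbroken stretch of 35 bases between their boxes: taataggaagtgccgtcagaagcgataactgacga.

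Total counts ranged from 5871481 to 16175364 per library, and vehicle replicate 1 was the shallowest. Of all genes, 17847 passed the filter on low counts, 5057 of them higher (28.3%) and 5142 lower (28.8%) in the cytokine group at an adjusted p of 0.05 in edgeR's quasi-likelihood test, 57.1% in either direction. Levels are given as CPM, the count of a gene relative to its TMM-scaled library total, with SD over the 3 libraries of a group. The 14 beta cell markers checked all passed the filter, and 4 of them rose and 10 fell. G6PC2 fell from 42.0 to 6.63 CPM and MAFA from 5.16 to 1.46 CPM, INS fell from 4012 to 3641 CPM, and IAPP rose from 3998 to 8238 CPM and PCSK1 from 661 to 1108 CPM. The part of these changes in the host gene results was not tested. The summed level of 5 immune markers was 5.40 to 6.03 CPM in vehicle and 21.1 to 22.5 CPM in cytokine libraries, nearly all of it CD68, which rose from 5.14 to 21.4 CPM, while PTPRC, CD3E and LYZ each averaged at most 0.214 CPM in either group.

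Host transcripts were lower in the cytokine group or did not pass the test, and none was higher. Of the 27 genes, 22 passed the filter, 12 of these fell and 10 did not pass the test. The 12 that fell are 54.5% of those tested, against the 28.8% of all tested genes that fell. In these bulk cultures, fewer cells of a type and less RNA per cell cannot be told apart. The largest falls were those of SNHG19, DANCR, SNHG7 and SNHG8, and the host with the highest count, SNHG29, also fell.

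Summed over the 27 genes, the level was 852 ± 42.5 CPM in the vehicle group and 610 ± 38.3 CPM in the cytokine group (SD, n = 3 each). The host genes took 0.0874%, 0.0953% and 0.0906% of the counts of the 3 vehicle libraries and 0.0537%, 0.0556% and 0.0609% of those with cytokines. Every vehicle library was above every cytokine library in both measures.

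The median log2 fold change of the 22 tested host genes was -0.28, and 20 of the 22 values were below 0. As a change per gene, that median is a fall of 17.6%. The median of all 17847 tested genes was -0.02. In 12 host genes, 54.5% of those tested, all cytokine libraries lay below all vehicle libraries, against 30.8% of all tested genes. In 0 host genes did all of them lie above, against 30.3% of all tested genes. These 12 were the same genes that passed the test. A fall of at least 1.5-fold was found in 7 host genes, 31.8% of those tested, against 11.3% of all tested genes.

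The scaling shifted every value by a like amount. With library size alone the median of all tested genes moved from -0.02 to -0.22, and that of the host genes from -0.28 to -0.48. Under that scaling 19 of the 22 host genes and 8779 of all 17847 tested genes were called lower, and again no host gene was called higher. The host genes that gained a call under it were SNHG3, SNHG16, SNHG17, SNHG15, SNHG11, ZFAS1 and SNHG12.

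**Figure D1:**
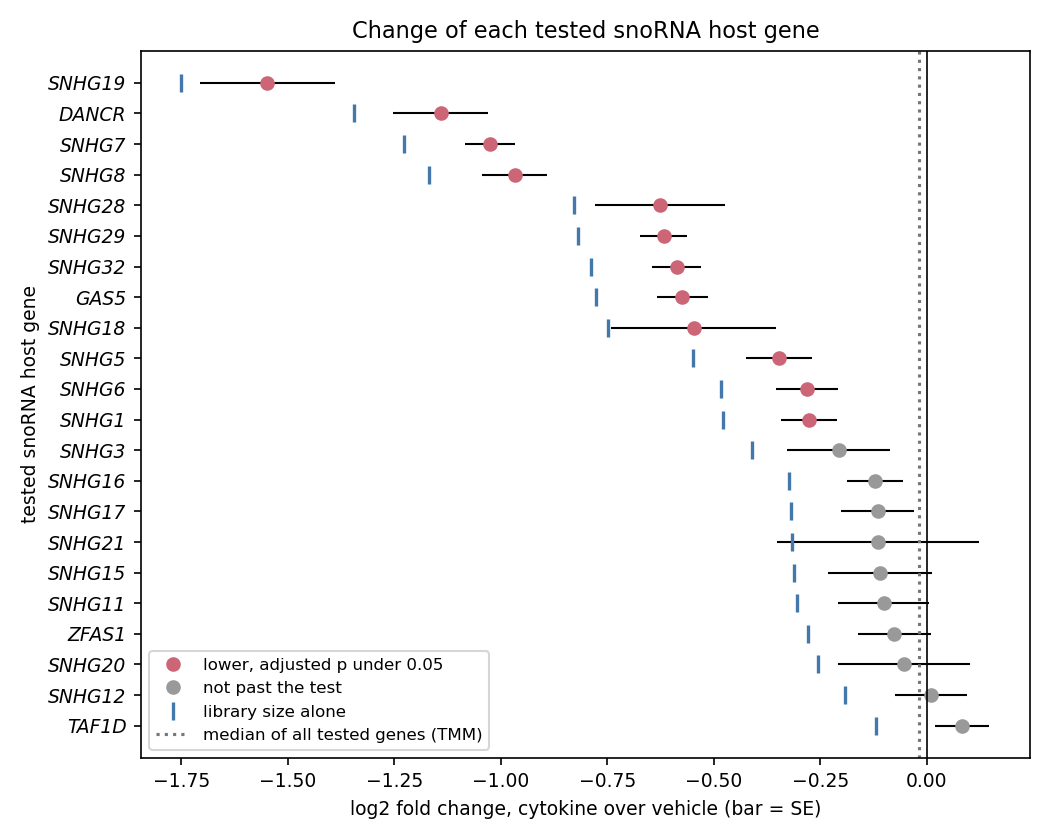
The log2 fold change of each of the 22 tested host genes, cytokine over vehicle, with bars of 1 SE (edgeR, TMM scaling) and with blue ticks for scaling by library size alone. The 12 red genes passed the test and lie between -1.55 and -0.28, the 10 grey ones did not, and SNHG12 and TAF1D, at 0.01 and 0.08, move below 0 with library size alone.

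Among hosts that carry only H/ACA snoRNAs, 3 of 7 tested genes fell, against 28.8% of all tested genes, with a median log2 fold change of -0.21 over the 7. DANCR, a long noncoding RNA named for its part in holding back differentiation, lies on chromosome 4 (chr4:52712404-52720351, plus strand) and is the host of SNORA26. Its level was 14.0, 12.9 and 15.0 CPM with vehicle (replicates 1, 2 and 3, as throughout) and 5.99, 5.90 and 7.24 CPM with the cytokines. The highest cytokine library was thus far below the lowest vehicle library. The log2 fold change of DANCR was -1.14 (SE 0.111, adjusted p = 4.63e-10), a 2.21-fold lower level.

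SNHG7, the host of SNORA17A and SNORA17B, lies at chr9:136721366-136728184 on the minus strand and was among the most counted host genes. Its level was 72.8, 75.6 and 75.6 CPM with vehicle and 34.7, 35.8 and 39.8 CPM with the cytokines. The vehicle libraries were close to each other, and the cytokine libraries were all near a lower level. The log2 fold change was -1.03 (SE 0.0587, adjusted p = 3.11e-15). The 3′ part of SNHG7 overlaps DIPK1B on the opposite strand, which fell from 42.2 ± 2.49 to 28.9 ± 2.21 CPM (log2 fold change -0.53, adjusted p = 1.48e-07).

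SNHG8, the host of SNORA24 (chr4:118278709-118279823, plus strand), stood at 44.0, 53.1 and 46.1 CPM with vehicle and at 22.4, 24.4 and 26.9 CPM with the cytokines. Its groups did not overlap, with a log2 fold change of -0.97 (SE 0.0754, adjusted p = 4.15e-12). The other 4 hosts of this class, SNHG3, SNHG17, SNHG15 and SNHG11, did not pass the test, and their groups overlapped. Their log2 fold changes lay between -0.21 for SNHG3, the host of SNORA73A and SNORA73B, and -0.10 for SNHG11, the host of SNORA71E and SNORA60. SNHG11 was at 13.7, 15.9 and 20.1 CPM with the cytokines, around its vehicle levels of 19.1, 16.9 and 17.7 CPM. Without cytokine replicate 3, SNHG3 and SNHG11 were called lower.

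Among hosts that carry only C/D snoRNAs, 7 of 9 tested genes fell, against 28.8% of all tested genes, with a median log2 fold change of -0.35 over the 9. These classes hold few genes, and the difference between them was not tested. SNHG19, a short gene of 562 bases on chromosome 16 (chr16:2154797-2155358, minus strand) that hosts SNORD60, had the lowest log2 fold change of all host genes. Its level was 7.15, 9.37 and 7.96 CPM with vehicle and 2.20, 2.83 and 3.48 CPM with the cytokines. All cytokine libraries were below all vehicle libraries, at a log2 fold change of -1.55 (SE 0.159, adjusted p = 1.43e-09) and a 2.92-fold lower level. Ordered from the lowest log2 fold change, it was at rank 213 of all 17847 tested genes.

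SNHG29, annotated as LRRC75A-AS1 in GENCODE 29 (chr17:16438822-16478678, plus strand), is the host of SNORD49A, SNORD49B and SNORD65. It was the host gene with the highest level per length in the vehicle group, at 66.2 CPM per kb of exon. Its level was 232, 274 and 240 CPM with vehicle and 155, 158 and 175 CPM with the cytokines. The groups did not overlap, and the log2 fold change was -0.62 (SE 0.0548, adjusted p = 2.90e-10). LRRC75A, which overlaps it on the opposite strand, fell from 11.5 ± 1.05 to 8.73 ± 0.146 CPM (log2 fold change -0.39, adjusted p = 0.00228).

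SNHG32, annotated as the protein-coding gene C6orf48 in GENCODE 29 (chr6:31834608-31839766, plus strand), is the host of SNORD48 and SNORD52. It stood at 99.3, 107 and 97.2 CPM with vehicle and at 63.4, 63.8 and 74.2 CPM with the cytokines, with no overlap. The log2 fold change was -0.59 (SE 0.0577, adjusted p = 6.01e-10).

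The falls of SNHG5, SNHG6 and SNHG1 were smaller. SNHG5, the host of SNORD50A and SNORD50B (chr6:85660950-85678748, minus strand), was at 24.8, 28.1 and 28.0 CPM with vehicle and 19.9, 23.6 and 21.3 CPM with the cytokines. Its highest cytokine library was just below its lowest vehicle library, and the log2 fold change was -0.35 (SE 0.0773, adjusted p = 0.000332). SNHG6, the host of SNORD87, was at 32.1, 35.7 and 31.5 CPM with vehicle and 24.8, 27.8 and 29.1 CPM with the cytokines (log2 fold change -0.28, SE 0.0739, adjusted p = 0.00175). Its 3′ end overlaps MCMDC2 on the opposite strand, whose log2 fold change was -1.46 at a level of only 1.31 CPM in the vehicle group. SNHG1, a compact gene with 8 C/D snoRNAs from SNORD22 to SNORD31 (chr11:62851988-62855914, minus strand), was at 39.2, 41.5 and 37.4 CPM with vehicle and 31.8, 33.6 and 31.6 CPM with the cytokines (log2 fold change -0.28, SE 0.0651, adjusted p = 0.000586). In both genes every cytokine library was below every vehicle library.

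SNHG18, the host of SNORD123 (chr5:9546200-9550609, plus strand), passed the test with the fewest reads. Its level was 3.37 ± 0.205 CPM in the vehicle group and 2.34 ± 0.483 CPM in the cytokine group (SD, n = 3 each), with a log2 fold change of -0.55 (SE 0.194, adjusted p = 0.0169). The call was lost without vehicle replicate 2, without vehicle replicate 3, without cytokine replicate 1 and in DESeq2 (adjusted p = 0.22).

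SNHG16 and ZFAS1 were the C/D hosts that did not pass the test. SNHG16, the host of SNORD1A, SNORD1B and SNORD1C (chr17:76557766-76565348, plus strand), was at 41.0, 43.6 and 49.5 CPM with vehicle and 42.5, 42.2 and 40.9 CPM with the cytokines. The groups overlapped, and the log2 fold change of -0.12 (SE 0.0652) had an adjusted p of 0.113. SNHG16 was called lower without vehicle replicate 1. ZFAS1, named as the antisense RNA of ZNFX1 (chr20:49278178-49295738, plus strand), was at 14.9, 16.8 and 16.9 CPM with vehicle and 14.6, 15.6 and 16.7 CPM with the cytokines. The groups overlapped here too, at a log2 fold change of -0.08 (SE 0.0866, adjusted p = 0.471).

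Hosts that mix both kinds of snoRNA were GAS5, SNHG12 and TAF1D among the tested genes, and 1 of these 3 fell, against 28.8% of all tested genes. GAS5 (chr1:173863900-173868882, minus strand) is the growth arrest specific transcript, a classic example of a host RNA that begins with a pyrimidine run, and RefSeq lists 11 snoRNAs in it. Of these, 10 are of the C/D kind, among them SNORD44 and SNORD47, which also serve as reference RNAs in microRNA assays. GAS5 stood at 63.1, 68.7 and 64.0 CPM with vehicle and at 41.7, 42.9 and 47.2 CPM with the cytokines. The groups did not overlap, and the log2 fold change was -0.57 (SE 0.0595, adjusted p = 1.72e-09). The level thus fell by 32.8%.

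TAF1D codes for a protein, a subunit of the selectivity factor that places RNA polymerase I on ribosomal DNA (chr11:93729948-93784391, minus strand). It carries 8 snoRNAs, 6 of them of the H/ACA kind. Its level was 37.8, 43.6 and 40.0 CPM with vehicle and 42.5, 41.7 and 45.1 CPM with the cytokines. The groups overlapped, with a log2 fold change of 0.08 (SE 0.0633, adjusted p = 0.271) that turned to -0.12 with library size alone. SNHG12, the host of SNORD99, SNORA61, SNORA44 and SNORA16A, was at 16.1 ± 0.935 and 16.1 ± 0.426 CPM in the vehicle and cytokine groups (adjusted p = 0.935), and its log2 fold change of 0.01 turned to -0.19 with library size alone.

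The rest of the tested hosts had low counts. SNHG21 and SNHG20, the hosts of the Cajal body RNAs SCARNA15 and SCARNA16, did not pass the test, at log2 fold changes of -0.11 and -0.05. SNHG28, for which neither annotation gives a snoRNA by a standard symbol (GENCODE 29 holds an intronic snoRNA under a family code only), fell from 5.42 ± 0.473 to 3.57 ± 0.305 CPM (log2 fold change -0.63, SE 0.152, adjusted p = 0.000811), a call that was lost in DESeq2 (adjusted p = 0.0557).

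**Figure D2:**
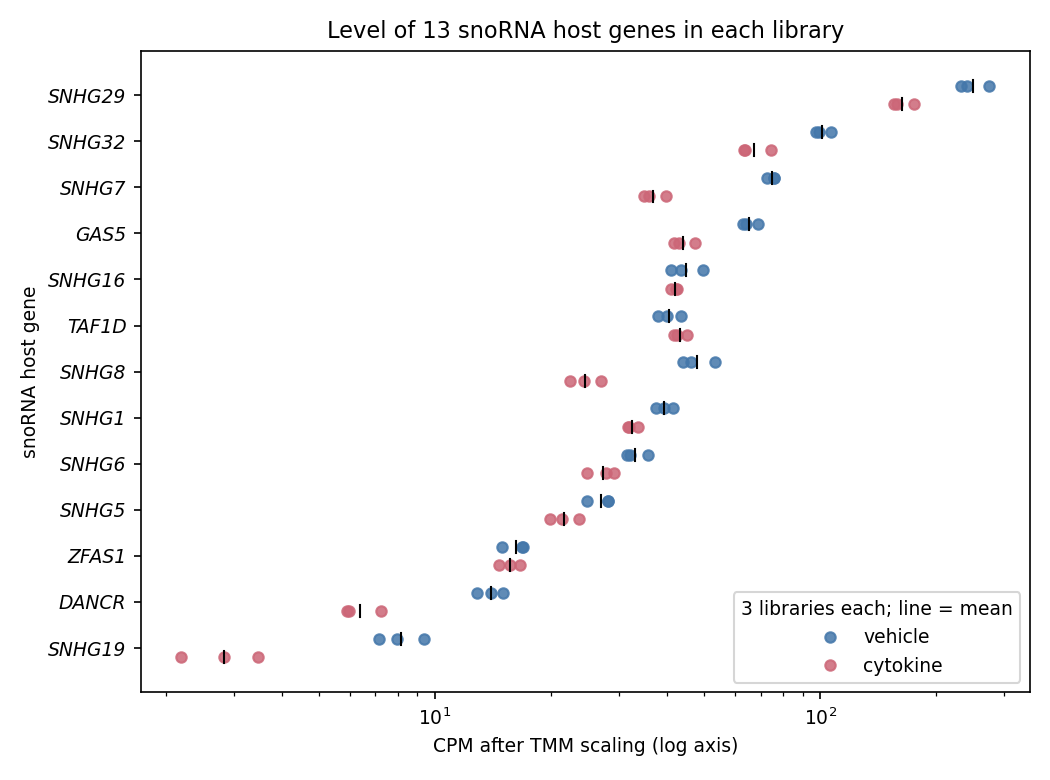
CPM after TMM scaling on a log axis for 13 host genes, with 1 point per library (blue vehicle, red cytokine, 3 each) and a black line at each group mean. SNHG19, DANCR, SNHG7 and SNHG8 have the widest gaps between the groups, while the points of SNHG16, TAF1D and ZFAS1 overlap. CPM is not corrected for gene length, so the rows are not an order of molar levels.

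The other 5 host genes, SNHG9, SNHG25, SNHG26, SNHG27 and SNHG31, did not pass the filter. None of them had more than 6 counts in a library, so no change was detectable in them at this depth. In the vehicle group, the host genes with the highest level per length were SNHG29, SNHG32 and SNHG8, at 66.2, 56.1 and 51.7 CPM per kb of exon. SNHG6 and SNHG19 followed at 26.6 and 23.9 CPM per kb of exon, so that SNHG19 stood high per length although its CPM was low.

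In the authors' deposited table the same 12 host genes were lower at a false discovery rate of 0.05 and none was higher.

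Several hosts start close to the start of a gene on the opposite strand, which gives each of them a neighbour to compare in the same libraries. Of 21 tested opposite-strand neighbours that overlap a host or start within 1000 bases of its start, 3 rose, 7 fell and 11 did not pass the test. Among all tested genes 28.3% rose and 28.8% fell. In 8 pairs of a tested host and a tested neighbour the starts lay within 1000 bases of each other. The ratio of neighbour to host within a library does not depend on the scaling, and it did not overlap between the groups in 5 of the 8 pairs, in each case with a higher ratio in the cytokine libraries. Each of the 5 had p = 0.1 in a two-sided exact permutation test of the log2 ratio, which is the smallest p that 3 against 3 libraries allow, and 0.16 after adjustment over the 8 pairs. By level, 30.8% of all tested genes lay without overlap below and 30.3% above, and ratios of other gene pairs were not computed.

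ZNFX1, an interferon-induced helicase of the antiviral response whose annotated start lies 248 bases from that of ZFAS1, rose from 68.4 ± 2.37 to 282 ± 6.87 CPM (log2 fold change 2.05, SE 0.0474, adjusted p = 4.17e-25). ZFAS1 itself did not pass the test. There were 4.68, 4.14 and 3.89 ZNFX1 reads per ZFAS1 read with vehicle, against 19.8, 17.9 and 16.6 with the cytokines.

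SLC3A2, the heavy chain of several amino acid transporters, starts 188 bases from SNHG1 and does not overlap it. It rose from 280 ± 12.6 to 360 ± 18.2 CPM (log2 fold change 0.36, SE 0.0448, adjusted p = 5.16e-08), and it was also called higher with library size alone (0.16, adjusted p = 0.00195). SNHG1 fell in the same libraries. There were 7.14, 7.05 and 7.16 SLC3A2 reads per SNHG1 read with vehicle, against 11.2, 10.2 and 12.0 with the cytokines.

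TRAF7, a ubiquitin ligase gene that starts 340 bases from SNHG19, was at 127 ± 4.10 and 132 ± 2.20 CPM and did not pass the test (log2 fold change 0.06, adjusted p = 0.247), though it was called lower with library size alone (-0.14, adjusted p = 0.00786). The TRAF7 reads per SNHG19 read rose from 18.4, 13.2 and 15.6 in the vehicle libraries to 60.9, 46.4 and 37.3 in the cytokine libraries without overlap. ZBTB37, a zinc finger gene whose start lies 800 bases from that of GAS5, did not pass the test either (log2 fold change -0.02, adjusted p = 0.887), while it was lower with library size alone (-0.22, adjusted p = 0.0243). MED17, a subunit of the Mediator complex that starts 164 bases from TAF1D, rose from 16.1 ± 1.00 to 20.2 ± 0.373 CPM (log2 fold change 0.31, adjusted p = 0.00152), a call that was lost with library size alone (0.11, adjusted p = 0.238).

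In 2 pairs both genes fell. SEMA5A, a semaphorin gene that starts 125 bases from SNHG18, had a log2 fold change of -0.51 (adjusted p = 4.95e-10) beside -0.55 for SNHG18. LOC107985216, which starts 367 bases from SNHG28, had a log2 fold change of -0.97 (adjusted p = 5.03e-09) beside -0.63 for SNHG28. The remaining pair, SNHG16 and AC015802.4, did not pass the test in either gene. The libraries were made with a directional kit, but no source used here states the strand setting of the counting, so reads from overlapping genes of opposite strands cannot be told apart for ZFAS1 and ZNFX1, GAS5 and ZBTB37, TAF1D and MED17, and SNHG28 and LOC107985216, nor for SNHG7, SNHG29 and SNHG6 and the genes named above as overlapping them.

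**Figure D3:**
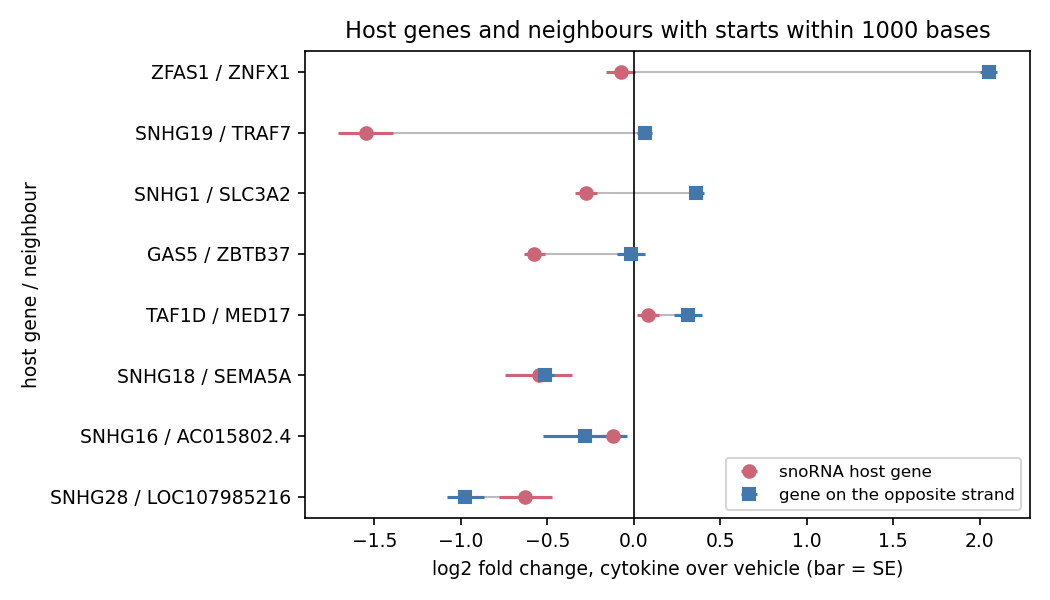
The log2 fold change (cytokine over vehicle, bars of 1 SE) of each host gene (red circle) and of the opposite-strand gene that starts within 1000 bases of it (blue square), for the 8 pairs in which both were tested. ZNFX1 at 2.05 lies far to the right of ZFAS1 at -0.08, and SNHG1 and SLC3A2 lie on either side of 0.

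The starts of the host RNAs were then compared with the motif that many of them are known for. In RefSeq on GRCh38.p14, 23 of the 27 host genes had a promoter entry. The windows below run from 20 bases before the annotated first transcribed base to 30 bases from it on. Capitals mark the first run of at least 5 pyrimidines that begins with C and starts within 10 bases of the first transcribed base on either side.
SNHG19 (chr16:2155329-2155378, minus strand): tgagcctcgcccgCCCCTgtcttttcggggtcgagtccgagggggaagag
DANCR (chr4:52712374-52712423, plus strand): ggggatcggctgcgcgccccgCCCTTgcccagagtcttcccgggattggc
SNHG8 (chr4:118278742-118278791, plus strand): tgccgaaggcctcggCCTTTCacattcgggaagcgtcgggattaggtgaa
SNHG5 (chr6:85678704-85678753, minus strand): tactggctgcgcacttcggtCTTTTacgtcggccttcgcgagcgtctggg
ZFAS1 (chr20:49278622-49278671, plus strand): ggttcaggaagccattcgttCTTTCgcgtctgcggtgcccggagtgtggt
SNHG12 (chr1:28581844-28581893, minus strand): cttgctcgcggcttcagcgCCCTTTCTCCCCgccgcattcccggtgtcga

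In SNHG5 and SNHG32, which fell, and ZFAS1, which did not pass the test, the first run begins exactly at the annotated first base. In SNHG19, which fell, another run, not marked, begins at that base after the marked one. A run that starts in this range, or crosses into it from upstream, was found in 16 of the 23 host genes, against 33.3% of 27305 promoters. The same search found a run in 56 of 63 ribosomal protein genes. Among host genes with an entry, a run was found in 8 of the 11 that fell and in 6 of the 9 that did not pass the test. In SNHG29 and SNHG7, which fell, the run crosses in from upstream and so starts more than 10 bases before the first base. The annotated start of GAS5 in this table lies upstream of its GENCODE 29 start and held no run.

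Motifs of the pathways of the 2 cytokines were searched on both strands from 250 bases before to 50 bases after the start. The gamma-activated site TTCNNNGAA was found in 3 of the 23 host genes, SNHG3, DANCR and TAF1D, against 7.88% of all promoters. The core of the interferon-stimulated response element, GAAA followed after any 2 bases by GAAA, was found in 0 of the 23 against 3.65%, and an NF-kappaB site, GGG followed after any 2 bases by TTTCC, in SNHG21 alone against 1.92%. The E-box CACGTG, the site of MYC and related factors, was found in SNHG7 alone against 7.43% of all promoters. Its promoter is printed because SNHG7 had the smallest adjusted p of all host genes, with the E-box in capitals, 122 bases before the start.
SNHG7 promoter (GRCh38.p14, chr9:136728135-136728434, minus strand): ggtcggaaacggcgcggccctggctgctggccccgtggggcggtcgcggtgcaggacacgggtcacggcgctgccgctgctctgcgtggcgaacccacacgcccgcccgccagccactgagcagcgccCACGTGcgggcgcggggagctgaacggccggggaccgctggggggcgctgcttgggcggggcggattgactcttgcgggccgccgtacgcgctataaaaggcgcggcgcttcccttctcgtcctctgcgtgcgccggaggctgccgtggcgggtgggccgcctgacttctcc

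Few rows of the snoRNAs themselves had enough counts to be tested. Of 436 rows named as snoRNAs or Cajal body RNAs, 339 had a count and 47 passed the filter. Of these 47, 5 were higher, 3 were lower and 39 did not pass the test, against 28.3% higher and 28.8% lower among all tested genes. These counts depended on the test and on single libraries: DESeq2 called 0 higher and 1 lower, 3 were higher without vehicle replicate 3, and 5 were lower without vehicle replicate 1. SNORD23 rose from 0.345 to 0.907 CPM and SNORA33 from 0.432 to 0.965 CPM, and SNORD64 fell from 1.11 to 0.389 CPM. SNORD118, the U8 snoRNA of ribosomal RNA processing, fell from 1.86 to 1.15 CPM (adjusted p = 0.0317), although its groups overlapped. The other lower row, SNORD58B, had more counts and fell from 13.6 to 8.47 CPM (adjusted p = 6.64e-05) without overlap.

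Inside the host genes studied here, 13 snoRNA rows were tested and none passed the test. SNORD49B, the most abundant of them, was at 5.24, 6.16 and 5.03 CPM with vehicle and 4.73, 4.56 and 4.49 CPM with the cytokines (log2 fold change -0.24, SE 0.143, adjusted p = 0.159), while its host SNHG29 had a log2 fold change of -0.62. SNORD48 had a log2 fold change of -0.24 (SE 0.309, adjusted p = 0.557) beside -0.59 for its host SNHG32. SNORA32 in TAF1D had the largest rise of the 13, 0.75 (SE 0.343, adjusted p = 0.0664). All 13 rows overlap bases that are annotated as exon of the host in at least 1 transcript, so reads of the snoRNA and of its host cannot be told apart in them. They also rest on few counts, and the difference between a snoRNA and its host was not tested.

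Genes that act with the hosts or in the same pathways were read from the same fit. The counts of every list below stand beside 28.3% higher and 28.8% lower among all tested genes. Cytosolic ribosomal protein genes, whose mRNAs share the pyrimidine start and many of whose introns also hold snoRNAs, mostly fell. Of 79 tested, 64 fell, 1 rose and 14 did not pass the test, with a median log2 fold change of -0.33 and 77 values below 0. RPL3 fell from 2082 to 1102 CPM (log2 fold change -0.92, adjusted p = 5.08e-19) and RPL5 from 567 to 314 CPM (-0.85, adjusted p = 1.66e-17). RPS12, the gene that rose, went from 315 to 411 CPM (0.38, adjusted p = 3.18e-08). With library size alone 76 were lower and 1 was higher, and 2 were higher without cytokine replicate 1 or without vehicle replicate 2.

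Protein-coding snoRNA hosts outside the ribosomal proteins were split. Of 19 tested, 8 rose, 6 fell and 5 did not pass the test, at a median log2 fold change of 0.10, and with library size alone 3 rose and 12 fell. RNF149, a ubiquitin ligase gene, rose from 23.8 to 55.4 CPM (1.21, adjusted p = 9.48e-16), and CHD8, a chromatin remodeller, rose from 143 to 186 CPM (0.37). The translation elongation factors EEF2 and EEF1B2 fell, from 3235 to 2296 CPM (-0.49) and from 106 to 79.8 CPM (-0.41).

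Calls among the proteins that bind snoRNAs depended on the libraries and the test. Of 8 core proteins of the C/D and H/ACA particles, 5 rose, 1 fell and 2 did not pass the test, a split that became 1 higher and 3 lower with library size alone. Without vehicle replicate 3 it was 2 higher and 0 lower, without cytokine replicate 3 it was 3 higher and 0 lower, and in DESeq2 it was 2 higher and 0 lower. FBL, the methyltransferase of C/D particles, rose from 67.1 to 105 CPM (0.64, adjusted p = 8.50e-12) and was the one called higher under both scalings. GAR1, a protein of H/ACA particles, rose from 9.02 to 11.3 CPM (0.33, adjusted p = 0.0162), a call lost with library size alone (0.13, adjusted p = 0.345). DKC1, the pseudouridine synthase of H/ACA particles, fell from 53.5 to 48.6 CPM (-0.14, adjusted p = 0.0338), a call that was kept without vehicle replicate 1 and lost without any 1 of the other 5 libraries and in DESeq2.

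Of 14 genes for assembly and trafficking of these particles, 1 rose, 3 fell and 10 did not pass the test, and with library size alone 0 were higher and 9 lower. Without cytokine replicate 3 there were 2 that rose. NOLC1, a nucleolar chaperone of snoRNA particles, rose by 0.19 on the log2 scale (adjusted p = 0.00175), a value that turned to -0.01 with library size alone. WRAP53, which takes part in trafficking to Cajal bodies, and ZNHIT3, an assembly factor of C/D particles, had log2 fold changes of -0.45 and -0.34. Of 15 genes of the RNA polymerase I machinery, which transcribes the ribosomal RNA that snoRNAs act on, 0 rose, 6 fell and 9 did not pass the test, and 12 were lower with library size alone and 3 in DESeq2. POLR1E and TAF1B fell most, at -0.60 and -0.51.

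Of 16 nonsense-mediated decay factors, 6 rose, 2 fell and 8 did not pass the test, and with library size alone 3 rose and 9 fell. SMG1, the kinase that starts the decay by phosphorylating UPF1, rose from 137 to 280 CPM (1.03, adjusted p = 1.18e-09), and it was also called higher with library size alone (0.83, adjusted p = 2.77e-08). UPF3B and UPF3A, which link the decay machinery to the exon junction complex, fell, at -0.32 and -0.28. Reads of SMG1 are uncertain because the genome holds near-identical copies of part of the gene. Whether any of these genes acts on the host transcripts was not tested.

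**Figure D4:**
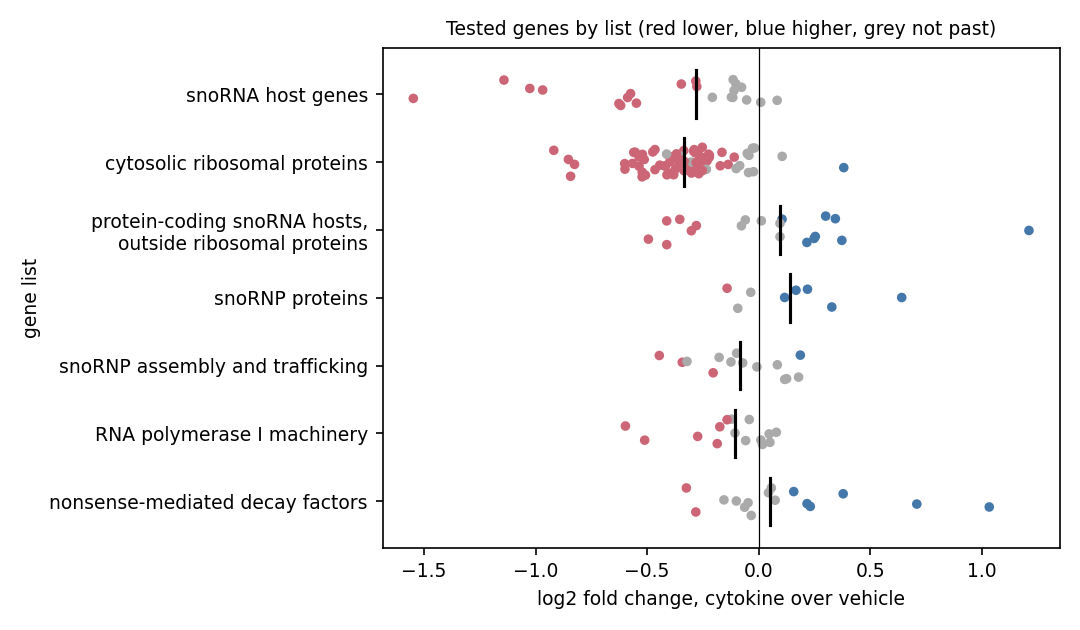
Each point is a tested gene at its log2 fold change (cytokine over vehicle), by list, with red for lower, blue for higher and grey for not past the test, and a black line at the median. The host genes and the ribosomal proteins lie mostly below 0, with medians of -0.28 and -0.33. The RNA polymerase I list also leans below 0, with 10 of 15 values below it, a median of -0.11 and a highest value of 0.08. The remaining lists spread to both sides under TMM scaling.

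Some genes carry an SNHG symbol only in the current names table and fell outside the rule, and they were looked at after their values were seen. SNHG14, the long transcript of the Prader-Willi region, fell from 254 ± 0.721 to 206 ± 7.80 CPM (log2 fold change -0.31, adjusted p = 3.79e-07). SNHG30 was also lower (-0.40, adjusted p = 0.0109), although its groups overlapped, and SNHG10 and SNHG4 did not pass the test.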

How the data were processed

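RNA was measured in 6 libraries, 3 per group by the treatment label, made from total RNA with a directional kit, per the labels' protocols. Per the submitters' processing notes, HTSeq 0.12.4, STAR 2.7.5a and cutadapt 2.10 are named beside MultiQC 1.9, Picard 2.23.2, FastQC 0.11.9 and GRCh38, without roles. The authors deposited estimated counts per gene, not normalised. Of the 162 values of host genes by library, 104 were not within 0.005 of a whole number, and no source used here gives the origin of the fractions, the annotation or the strand setting. The authors also deposited a p-value with its false discovery rate, a test score (F), a log2 fold change and a log2 mean level, per the file headers, of which only the log2 fold change and false discovery rate were used. Columns named NT were taken as vehicle because those named CYTO hold the cytokine group.

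Counts were rounded, filtered with filterByExpr, scaled with TMM and tested with group as the sole term by the robust quasi-likelihood test of edgeR 4.0.16 under R 4.3.3, with p-values adjusted by Benjamini-Hochberg over all 17847 genes. DESeq2 1.42.0 was an alternative, as were other scalings, filters, thresholds, a replicate block and leaving out each library. A simulation over 17847 genes gave each size of change to only 50 genes. The test found 98% of those with a log2 change of 1 and 64% of those with 0.25. Over all sizes, 13 of its 187 calls were wrong. In the data 57.1% of tested genes were called, and whether the simulated rates hold for so many changes was not tested. The depth per library was 5871481 to 16175364 counts, so levels near 1 CPM rest on few counts.

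Coordinates are from GENCODE 29, which held 58352 of the 60611 identifiers. The snoRNAs in each host were taken from RefSeq and GENCODE names, 67 in all, classed by the prefix of the name. The members and lists were chosen with earlier results of these data known. Values per library are given for GAS5, ZFAS1, DANCR, TAF1D, the 8 other host genes with the highest mean CPM and the 4 largest changes in each direction past the test. In each list the text names the 2 largest in each direction past the test. A few genes that this rule or the annotation would name are not reported here. Others named in the text were chosen after their values were seen. Replicates of a group differed by more than sampling noise.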

Additional observations from a re-analysis of the deposited data

How the results depend on the processing

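Of the 12 host genes that fell, SNHG19, DANCR, SNHG7 and SNHG8 were called lower under all 15 alternatives, SNHG18 lost its call under 6 of them and SNHG28 under 2, and SNHG29, SNHG32, GAS5, SNHG5, SNHG6 and SNHG1 lost it only when a fold of 1.5 was tested with edgeR's glmTreat. That test called 4 host genes lower, and 1395 genes higher and 950 lower among all tested genes. Among the 6 supporting lists together (151 genes, 21 higher and 82 lower) it called 3 higher and 4 lower. With library size alone 2980 genes were higher and 8779 lower, 19 host genes were lower with a median of -0.48, the lists held 8 higher genes, and SNHG12 turned to -0.19. DESeq2 with its own filter called 3356 genes lower. Leaving out 1 library at a time gave 11 to 14 host genes lower and medians from -0.33 to -0.22, and 4369 to 4863 lower genes in all. With the replicate number as a block, 12 host genes were lower with a median of -0.27, and 5010 genes were higher and 5101 lower in all. The correlations of same-numbered libraries were 0.0657, 0.0244 and -0.0747, so no pairing by number was seen. Such values cannot tell whether same-numbered libraries shared a batch. Fractional counts without rounding, an alternative chosen after seeing the data, gave 12 host genes lower. At this depth the 5 untested host genes and most snoRNA rows could not be compared.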
